A study of Mus musculus with 12 samples.

Results

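Respiratory complex I was followed through 40 genes of the mouse atrium, out of 17655 genes read on the arrays. The genes were chosen by name: every probe whose platform symbol begins with Ndufa, Ndufb, Ndufc, Ndufs or Ndufv was taken, Ndufaf symbols included, which gave 62 of 46114 probes. The brightest probe, by its mean over 12 arrays, stood for each gene. By role there were 6 core subunits, 27 accessory subunits, 6 assembly factors and Ndufa4, which carries the prefix but belongs to complex IV. The rule goes by gene name, with brightness used to pick a probe, and it was set with earlier results of these data known. Accessory subunits Ndufa11, Ndufb1 and Ndufs5, assembly factors Ndufaf2 and Ndufaf8, Ndufa4l2 and the subunits encoded in mitochondrial DNA were not analysed here.

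Male mice of 2 genotypes were compared on Illumina Sentrix Mouse-6 beadchips, with 6 arrays for each. The Tbx3 mice were Cre4-CT double transgenics, in which Cre recombinase from the Nppa-Cre4 transgene switches on Tbx3, a T-box repressor, from the CT transgene in the atria. The Control mice had Nppa-Cre4 without CT, so both groups carried the Cre transgene and no group had CT alone. Cre is driven by the promoter of Nppa, the atrial natriuretic peptide gene of heart muscle cells, while whole atria were measured. Age and strain were not given in the sources used here. Each array was described as a biological replicate. Tbx3 itself went against the label on its brighter probe: the level was 6.59 ± 0.21 in Control and 6.18 ± 0.18 in Tbx3 (SD, n = 6 each), a log2 change of -0.42 (SE 0.11, limma adjusted p = 0.0263), with 4 of 6 Tbx3 arrays below the lowest Control. The dimmer probe had 0.02 (adjusted p = 0.982). The sources do not place these probes inside or outside the transgene, so the raised Tbx3 of the labels was not seen here, and every direction given below is between arrays labelled Tbx3 and Control.

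Complex I, the NADH:ubiquinone oxidoreductase, is the largest enzyme of the respiratory chain. It takes electrons from NADH onto a flavin, passes them along a row of iron-sulphur clusters in an arm that projects into the mitochondrial matrix, hands them to ubiquinone, and uses the energy to pump protons through an arm embedded in the inner membrane. Core subunits do the chemistry and are conserved from bacteria, accessory subunits surround and stabilise them, and assembly factors help build the complex without staying in it. Heart muscle is packed with mitochondria and relies on this chain for most of its ATP.

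Most complex I genes had a lower mean level in the Tbx3 atria, and none passed as higher. Of the 40 genes, 13 fell, 0 rose and 27 missed the threshold, an adjusted p of 0.05 in limma over all probes. No filter on low values was set, so all 40 were tested. At an unadjusted p of 0.05, 29 genes were lower and 0 higher. Among all 17655 genes, 2.98% passed as lower and 2.97% as higher, and 8.88% were lower at the unadjusted p. Probes of complex I are bright, and bright probes were called more often, so the 33 members above the 95th percentile of brightness can be read against the genes there: 12 of those 33 members fell, and 9.83% of all 1729 such genes, of which 8.39% passed as higher and 51.1% had a change below 0. Above the 98th percentile 10 of 28 members fell, against 12.5% of all genes there, and all 28 changes lay below 0, against 51.0%. Counted by probe, 14 of the 62 fell and 56 lay below 0, against 1.68% and 50.3% of all probes. The median log2 change of the 40 genes, Tbx3 minus Control, was -0.29, which is 18.4% less signal on a linear scale, beside -0.01 for the genes above the 95th percentile. The change lay below 0 for 38 of the 40 genes, against 50.9% of all genes. With the mean of fibroblast markers, or of cardiomyocyte markers, in each array as a covariate, 0 of the 40 genes passed, and the median changes were -0.23 and -0.24. Calls were few in these fits as a whole: 0.178% and 0.497% of all probes were called lower, against 1.68% without a covariate. The mean of skeletal muscle markers did not overlap between the groups. With that mean as a covariate, 0 passed, the median was -0.19, and 9 of the 40 changes turned sign. Only 1 of all 46114 probes was called lower in that fit, and the errors were wide (SE 0.32 for Ndufa8, against 0.11 without). A covariate that separates the groups fully can hardly be told apart from genotype, so the lost calls say little about complex I.

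The calls were spread over core, accessory and assembly genes. In the core 3 of 6 genes fell, in the accessory class 8 of 27 and among the assembly factors 2 of 6. The changes were modest, from -0.55 for Ndufs7 to 0.08 for Ndufaf6, with a median standard error of 0.10. By place in the enzyme, 6 of 15 genes of the matrix arm and 5 of 17 of the membrane arm fell, with median log2 changes of -0.31 and -0.29. Ndufab1, found in both arms, was counted in neither. No test of the classes or arms against each other was made.

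**Figure D1:**
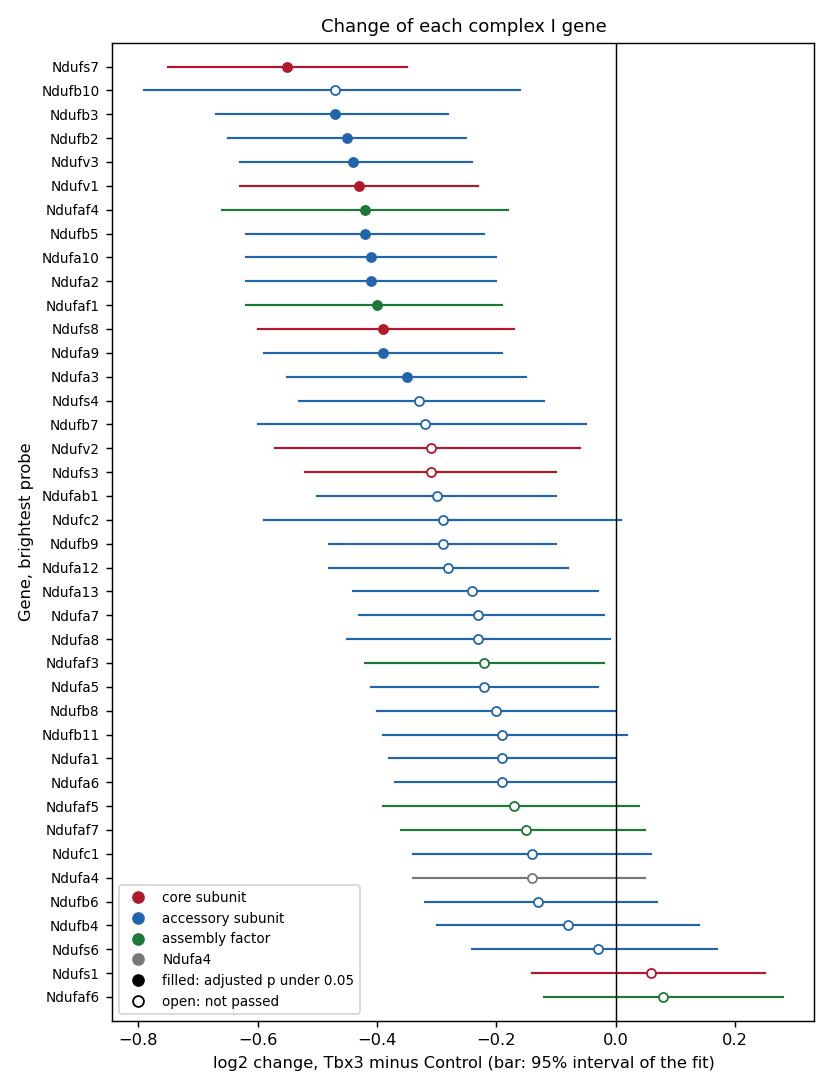
The log2 change of each of the 40 genes, Tbx3 minus Control, with the 95% interval of the limma fit (6 arrays per group). Points run from -0.55 for Ndufs7 to 0.08 for Ndufaf6, and the 13 filled points passed an adjusted p of 0.05, all of them below 0.

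Promoter windows of 3 members are shown because they set the member with the smallest p, Ndufs7, beside the bright member with the change nearest to 0, Ndufs6, which holds the same motif, and add an assembly factor that fell, Ndufaf4. Each runs 5′ to 3′ from 250 bases before to 50 bases after the gene's start, taken from RefSeq on GRCm38.p6. In Ndufs7 (chr10:80249199-80249498, plus strand) and Ndufs6 (chr13:73328433-73328732, minus strand) the capitals mark a match to AAGATGGC, the core of the motif of YY1, a zinc finger factor that acts on many nuclear genes of mitochondria. In Ndufaf4 (chr4:24897833-24898132, plus strand) they mark a match to GCGCATGCG, a 9-base form of the motif of NRF1, another such regulator, whose match on the opposite strand overlaps it.
Ndufs7: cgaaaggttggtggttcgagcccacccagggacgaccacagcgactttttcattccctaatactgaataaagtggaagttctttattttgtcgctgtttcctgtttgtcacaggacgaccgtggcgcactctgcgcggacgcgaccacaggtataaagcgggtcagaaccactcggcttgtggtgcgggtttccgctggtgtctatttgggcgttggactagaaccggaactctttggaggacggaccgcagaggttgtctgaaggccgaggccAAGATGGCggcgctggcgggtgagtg
Ndufs6: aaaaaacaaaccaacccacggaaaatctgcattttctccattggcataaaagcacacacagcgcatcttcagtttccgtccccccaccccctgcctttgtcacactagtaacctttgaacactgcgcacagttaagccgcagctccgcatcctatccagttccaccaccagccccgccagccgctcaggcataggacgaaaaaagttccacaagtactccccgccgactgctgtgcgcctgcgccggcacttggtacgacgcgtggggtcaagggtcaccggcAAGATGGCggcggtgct
Ndufaf4: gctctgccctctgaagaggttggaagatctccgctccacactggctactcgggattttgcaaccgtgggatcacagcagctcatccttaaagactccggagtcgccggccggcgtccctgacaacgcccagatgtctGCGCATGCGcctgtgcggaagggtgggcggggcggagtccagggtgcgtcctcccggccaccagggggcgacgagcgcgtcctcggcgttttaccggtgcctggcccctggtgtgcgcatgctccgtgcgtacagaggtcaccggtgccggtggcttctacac

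Both strands of every window were searched for 4 motifs, each spelled exactly, and 36 of the 40 members had a promoter entry, 38 windows in all. AAGATGGC was found in 7 of the 38 windows, or 18.4%, against 2.75% of all 32851 promoter windows. The 7 genes were Ndufa3, Ndufa9, Ndufb8, Ndufc1, Ndufs4, Ndufs6 and Ndufs7, of which Ndufa3, Ndufa9 and Ndufs7 fell. GCGCATGCG stood in 3 windows, those of Ndufa8, Ndufaf4 and Ndufaf5, 7.89% against 1.75% of all windows, and of these genes Ndufaf4 fell. TCAAGGTCA, the site of the estrogen-related receptors, and AGGTGTGA, a T-box site, were found in 0 of the 38 windows, against 0.423% and 1.28% of all windows. A match is a run of letters and not a measured binding site, and its absence covers only these windows.

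Ndufs7, a core subunit that carries the last iron-sulphur cluster before ubiquinone, had the smallest p of all members. Its log2 level ran from 11.53 to 11.73 in the 6 Control arrays, with a median of 11.69, and from 10.90 to 11.23 in the 6 Tbx3 arrays, with a median of 11.15. The groups did not overlap: the highest Tbx3 array, at 11.23, was below the lowest Control array, at 11.53. The means were 11.65 ± 0.09 and 11.10 ± 0.13 (SD, n = 6 each), so Ndufs7 fell by 0.55 on the log2 scale (SE 0.10), or by 31.7%, with an adjusted p of 0.000461.

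Ndufv1, which holds the flavin and the binding site for NADH, fell by 0.43 (SE 0.10, adjusted p = 0.00867). Its Control arrays spanned 12.46 to 12.73 around a median of 12.67, and its Tbx3 arrays had a median of 12.23 and reached 12.41 at most. The groups again did not overlap. Ndufs8, the subunit with a pair of iron-sulphur clusters next to the quinone site, fell by 0.39 (SE 0.10, adjusted p = 0.0324), from Control arrays between 11.16 and 11.58 to Tbx3 arrays between 10.76 and 11.24. Here Tbx3 array 3, at 11.24, lay above Control array 3, at 11.16, and the call did not survive the removal of Control 1, 4, 5 or 6 or of Tbx3 1, 5 or 6, 7 arrays in all, with adjusted p as high as 0.0995.

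The other 3 core genes did not pass. Ndufs3, a core subunit of the matrix arm, had a log2 change of -0.31 (adjusted p = 0.099), with Control arrays from 11.24 to 11.51 and Tbx3 arrays from 10.92 to 11.34, of which 4 lay below the lowest Control. Ndufv2, an iron-sulphur subunit beside Ndufv1, had the same change of -0.31, but its Control arrays spread from 10.43 to 11.11 and its Tbx3 arrays from 10.03 to 10.81, and the adjusted p was 0.242. A second probe of Ndufv2 gave -0.32 (adjusted p = 0.203). Ndufs1, the largest iron-sulphur subunit, had a log2 change of 0.06 (adjusted p = 0.914), with means of 5.39 ± 0.11 and 5.45 ± 0.11 (SD, n = 6 each). Its only probe lay at the 37.1st percentile of brightness, so little can be read about Ndufs1 from it.

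**Figure D2:**
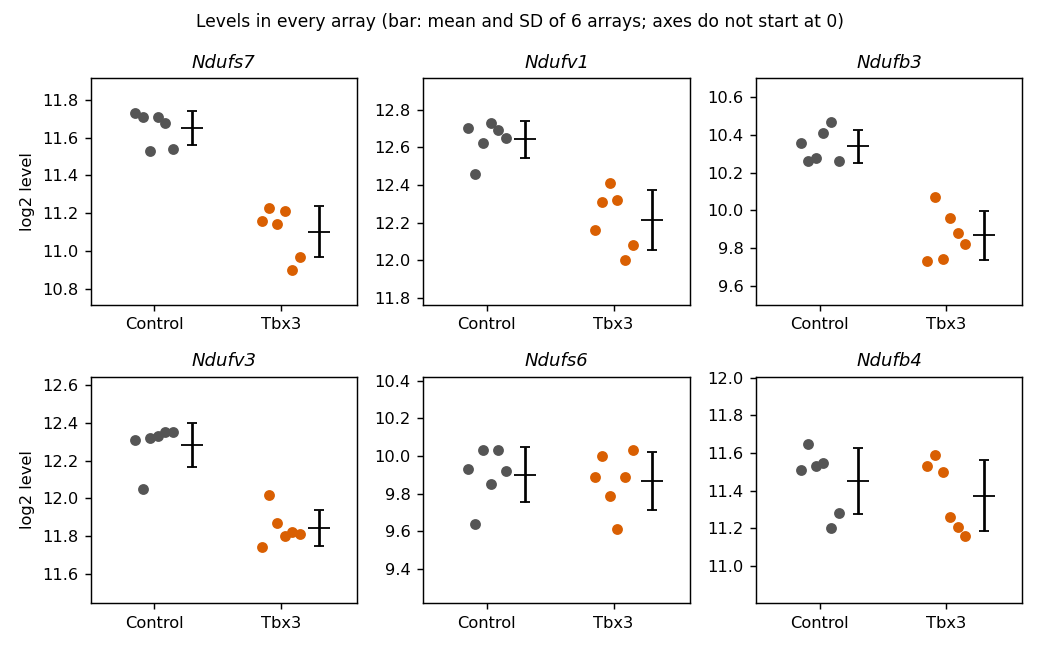
The log2 level of 6 genes in each of 6 Control (grey) and 6 Tbx3 (orange) arrays, with the mean and SD beside the points. Ndufs7, Ndufv1, Ndufb3 and Ndufv3 do not overlap between the groups, while in Ndufs6 and Ndufb4 the points of both groups cover the same range.

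Among the accessory subunits of the membrane arm, Ndufb3 and Ndufb2 had the smallest p. Ndufb3, a small subunit at the far end of that arm, ran from 10.26 to 10.47 in Control, with a median of 10.32, and from 9.73 to 10.07 in Tbx3, with a median of 9.85. No arrays overlapped, and Ndufb3 fell by 0.47 (SE 0.10, adjusted p = 0.00259). Ndufb2 fell by 0.45 (SE 0.10, adjusted p = 0.0056), from a median of 9.17 (8.95 to 9.28) to 8.64 (8.52 to 8.88), also without overlap. It has 3 probes, and the dimmer ones, at the 58.2nd and 30.3rd percentile of brightness, gave 0.10 and -0.24 (adjusted p of 0.827 and 0.275).

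Ndufb5, also of the membrane arm, fell by 0.42 (SE 0.10, adjusted p = 0.0106), with Control arrays from 12.16 to 12.65 and Tbx3 arrays from 11.92 to 12.11. Ndufa10, which has the fold of a nucleoside kinase and sits on the matrix side of the membrane arm, fell by 0.41 (SE 0.10, adjusted p = 0.0153), from a median of 11.72 (11.52 to 11.83) to 11.29 (11.05 to 11.50). In both genes the groups were apart. Ndufa10 was also called with its second probe (log2 change -0.46, adjusted p = 0.00641), but without Tbx3 array 1 the adjusted p of the brighter probe was 0.0567. Ndufa3, a short membrane subunit, fell by 0.35 (SE 0.10, adjusted p = 0.0415), with Control arrays from 10.97 to 11.37 and Tbx3 arrays from 10.69 to 10.97, so that the highest Tbx3 array met the lowest Control array. Removing Control 2, Control 3 or Tbx3 2 left that call standing, and removing any single one of the other 9 arrays ended it, with adjusted p as high as 0.121.

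In the matrix arm, the accessory genes that fell were Ndufv3, Ndufa2 and Ndufa9. Ndufv3, a partner of Ndufv1 and Ndufv2, fell by 0.44 (SE 0.09, adjusted p = 0.00512), from a median of 12.32 (12.05 to 12.35) to 11.82 (11.74 to 12.02). The groups were apart only just, since Control array 2 stood at 12.05 and Tbx3 array 2 at 12.02. Its second probe, at the 76.1st percentile of brightness, gave -0.06 (adjusted p = 0.911). Ndufa2, which has a thioredoxin-like fold, fell by 0.41 (SE 0.10, adjusted p = 0.015), from a median of 12.11 (11.83 to 12.27) to 11.66 (11.55 to 11.96). Only Tbx3 array 2, at 11.96, lay above the lowest Control array. Ndufa9, which lies against the quinone site, was very even in Control, from 10.97 to 11.09, and ran from 10.41 to 10.85 in Tbx3, without overlap, a fall of 0.39 (SE 0.10, adjusted p = 0.0155).

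All 19 accessory genes that missed the threshold had changes below 0, from -0.47 to -0.03. Ndufb10, a membrane-arm subunit facing the intermembrane space, had a change as large as that of Ndufb3, -0.47, with an SE of 0.15 and an adjusted p of 0.0998. Its Control arrays spread from 10.11 to 11.38 and its Tbx3 arrays from 9.61 to 10.36. Control array 4 was the highest by far, and the Control median was 10.51. Ndufs4, a matrix-arm subunit whose loss causes mitochondrial disease of the brain in human and mouse, was measured by 3 probes. Their changes were -0.33, -0.28 and -0.17, with adjusted p of 0.0703, 0.116 and 0.572. Ndufb9 and Ndufab1, the latter being the mitochondrial acyl carrier protein, did not overlap between the groups but missed the threshold, with changes of -0.29 and -0.30 (adjusted p of 0.0908 and 0.106). All 5 probes of Ndufab1 lay below 0, from -0.32 to -0.16. The remaining accessory genes without a call had adjusted p from 0.141 (Ndufa12, log2 change -0.28) to 0.705 (Ndufb6, -0.13). They were Ndufa1, Ndufa5, Ndufa6, Ndufa7, Ndufa8, Ndufa12, Ndufa13, Ndufb6, Ndufb7, Ndufb11, Ndufc1 and Ndufc2, with Ndufb8 described next. Ndufb7 (-0.32) and Ndufc2 (-0.29) had larger changes than Ndufa12, with wider errors (SE 0.13 and 0.15).

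Ndufs6 and Ndufb4 had the accessory changes nearest to 0. Ndufs6, a zinc-binding subunit of the matrix arm, ran from 9.64 to 10.03 in Control and from 9.61 to 10.03 in Tbx3, a log2 change of -0.03 with a 95% interval from -0.24 to 0.17 (adjusted p = 0.96). Ndufb4, of the membrane arm, ran from 11.20 to 11.65 and from 11.16 to 11.59, a change of -0.08 with an interval from -0.30 to 0.14 (adjusted p = 0.887). The interval of Ndufb4 still holds the median change of the 40 genes, -0.29, and that of Ndufs6 does not. Ndufb8 had Control arrays from 12.73 to 13.03 and Tbx3 arrays from 12.48 to 12.82, a change of -0.20 (adjusted p = 0.402) with its brighter probe, and gave 0.02 with a probe at the 72.9th percentile of brightness.

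Of the assembly factors, Ndufaf1 and Ndufaf4 fell. Ndufaf1, which helps to build the membrane arm, had Control arrays from 9.09 to 9.39 around a median of 9.15 and Tbx3 arrays from 8.55 to 9.13 around 8.78. Only Tbx3 array 3, at 9.13, reached into the Control range, and Ndufaf1 fell by 0.40 (SE 0.11, adjusted p = 0.0253). Ndufaf4, which acts on the part of the matrix arm that holds the quinone site, fell by 0.42 (SE 0.12, adjusted p = 0.0411), from a median of 8.74 (8.52 to 9.07) to 8.34 (7.87 to 8.66). Its other 2 probes gave -0.16 and -0.03 (adjusted p of 0.668 and 0.965). Both calls could be lost by removing a single array. Removing any 1 of 5 arrays (Control 3 or 4, Tbx3 2, 5 or 6) ended that of Ndufaf1, with adjusted p as high as 0.074. Removing any 1 of 8 (Control 2, 3, 4 or 6, Tbx3 1, 3, 4 or 6) ended that of Ndufaf4, with adjusted p as high as 0.151. Without single arrays the log2 changes stayed from -0.47 to -0.35 for Ndufaf1 and from -0.49 to -0.33 for Ndufaf4.

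Ndufaf3, which works together with Ndufaf4, had Control arrays from 9.38 to 9.81 and Tbx3 arrays from 9.25 to 9.43, a log2 change of -0.22 (adjusted p = 0.319). The methyltransferase-like factors Ndufaf5 and Ndufaf7 had -0.17 and -0.15 (adjusted p of 0.596 and 0.63), with Tbx3 arrays from 8.68 to 9.04 against 8.65 to 9.20 in Control for Ndufaf5 and from 6.39 to 6.85 against 6.75 to 6.91 for Ndufaf7. The dimmer probes of Ndufaf7 gave 0.03 and 0.01. Ndufaf6 had 0.08 (adjusted p = 0.864), with a probe at the 35.5th percentile of brightness. Ndufaf6 and Ndufs1, the only members with a change above 0, were also the only ones whose brightest probe lay under the median brightness. Ndufa4, the complex IV subunit, had -0.14 (SE 0.09, adjusted p = 0.636), with Control arrays from 12.70 to 12.97 and Tbx3 arrays from 12.61 to 12.84.

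Outside the prefix, 9 assembly factors of complex I from a further list were measured, of which 2 fell, 0 rose and 7 did not pass. All 9 changes lay below 0, with a median of -0.25. Of all genes, 2.98% fell and 50.9% had a change below 0. Lyrm2 and Ecsit, which take part in assembling the matrix and the membrane arm, fell by 0.45 (SE 0.10, adjusted p = 0.00643) and 0.41 (SE 0.10, adjusted p = 0.0215). Of 13 measured regulators of mitochondrial genes, 1 fell, 0 rose and 12 did not pass, and the one that fell was the coactivator gene Ppargc1b (log2 change -0.75, SE 0.13, adjusted p = 0.000567). The median log2 change of the 13 was -0.09, and a count of 1 is too small to be read against the share of all genes.

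Across arrays, each Tbx3 array held more low members than any Control array. Setting each array against the Control arrays (the other 5, for a Control array), from 30 to 39 of the 40 members lay below the Control mean in the Tbx3 arrays and from 8 to 27 in the Control arrays. Array by array, the median deviation was -0.32, -0.17, -0.17, -0.29, -0.31 and -0.37 for Tbx3 1 to 6, and it lay between -0.08 and 0.07 in Control. Tbx3 2 and 3 were nearest to Control and Tbx3 6 the lowest. Without Tbx3 6 and Control 4, the array with the fewest low members and the lowest erythroid mean, 7 genes fell and the median change was -0.22. These arrays lie at the far ends of the 2 groups and were left out after the data were seen, so a smaller change follows from the choice. In 28 of the 40 genes all 6 Tbx3 arrays lay below the Control mean. The share of all genes with that pattern was not counted, so how unusual it is cannot be read here. In 10 genes the groups were fully apart, with all Tbx3 arrays lower, against 2.15% of all genes and 7.92% of those above the 95th percentile of brightness, and 8 of these 10 were among the 13 that fell.

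**Figure D3:**
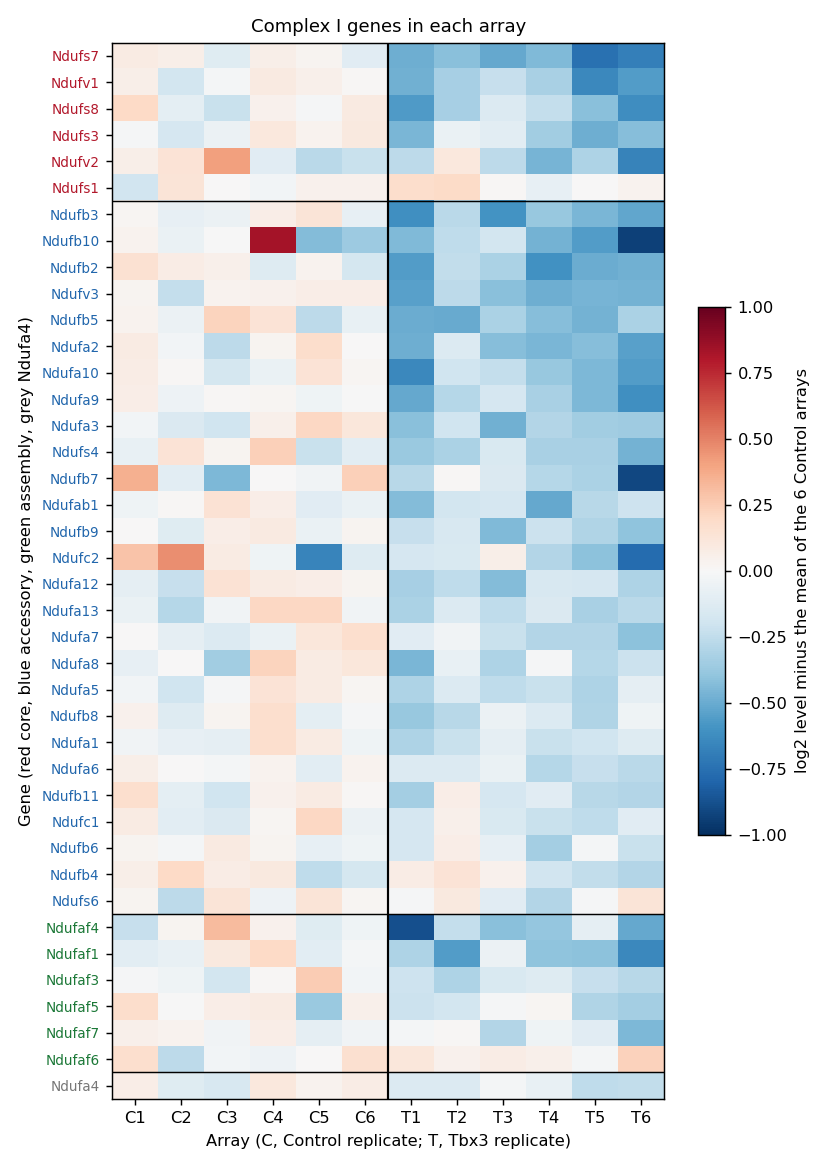
The log2 level of each of the 40 genes in each array, minus the mean of its 6 Control arrays, with genes in rows by class and arrays in columns. The Tbx3 columns are mostly blue, with 30 to 39 of 40 members below the Control mean, and Ndufb10 in Control 4 is the darkest red cell.

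Of 42 measured genes of complexes II to V, Ndufa4 left out, 4 fell, 2 rose and 36 did not pass, and 36 had changes below 0. These genes are bright, with a median at the 99.5th percentile of brightness. The share that fell, 9.52%, was near the 9.83% of all genes above the 95th percentile, of which 8.39% rose and 51.1% had changes below 0. The median log2 change of the 42 genes was -0.21, beside -0.29 for the complex I genes. This difference was not tested. The mean level of the 42 genes was also lower in every Tbx3 array, 11.41 to 11.51, than in any Control array, 11.55 to 11.73, as were those of complexes III and V and of general mitochondrial content. In complex II 0 of 4 genes passed in limma (3 were lower at an unadjusted p of 0.05), with Sdhb and Sdhc at -0.32 and -0.34 (adjusted p of 0.055 and 0.0652). In complex III 1 of 9 fell, Uqcr11 (log2 change -0.36, adjusted p = 0.0267). In complex V, the ATP synthase, 2 of 15 fell, Atp5k by 0.53 (SE 0.11, adjusted p = 0.00227) and Atp5h by 0.38 (SE 0.10, adjusted p = 0.039).

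Complex IV was the only complex with rises. Cox8b, the isoform typical of heart and skeletal muscle, fell by 0.52 (SE 0.10, adjusted p = 0.00199), while Cox8a, its widely expressed counterpart, rose by 0.37 (SE 0.10, adjusted p = 0.0262). Cox6a1, also a widely expressed isoform, rose by 0.65 (SE 0.10, adjusted p = 9e-05), and its muscle counterpart Cox6a2 had a log2 change of -0.25 (adjusted p = 0.314). Cox6a2 was chosen after its value was seen. Of 13 genes of general mitochondrial content, such as citrate synthase and the import and channel proteins of the mitochondrial membranes, 0 passed in limma (7 lower and 0 higher at an unadjusted p of 0.05), with a median log2 change of -0.23.

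**Figure D4:**
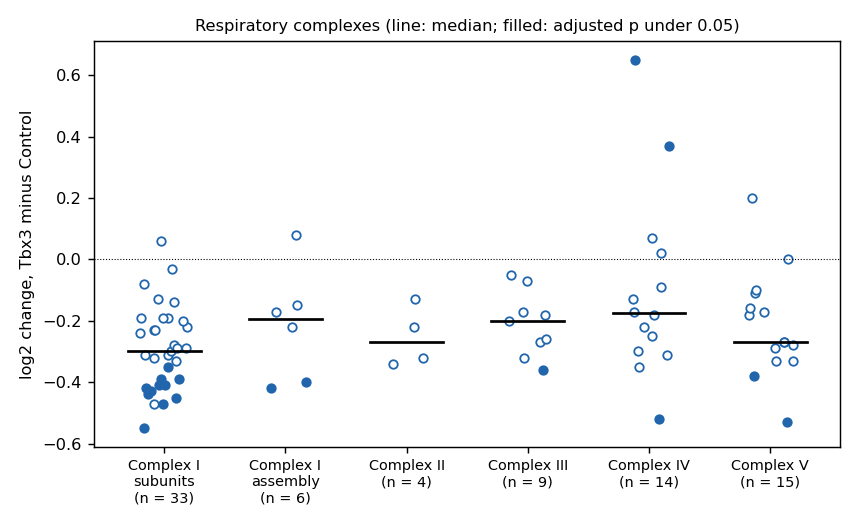
The log2 change, Tbx3 minus Control, of each measured gene of the respiratory complexes, with complex I subunits apart from its assembly factors. The lines mark medians, and among complexes II to V the 2 filled points above 0 are Cox6a1 and Cox8a.

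Some markers of cell types also differed between the groups, and in whole tissue fewer cells of a type and less RNA per cell cannot be told apart. Among all genes, 2.98% passed as lower and 2.97% as higher. Of 13 measured fibroblast markers 4 rose, 0 fell and 9 did not pass (median log2 change 0.29), and their mean level ran from 9.22 to 9.69 in Control and from 9.55 to 10.02 in Tbx3. Of 5 erythroid markers 1 rose, Slc4a1, 0 fell and 4 did not pass (median 0.67), with mean levels from 8.44 to 10.01 and from 9.71 to 10.66. Of 8 leukocyte markers 0 passed in limma (4 higher and 0 lower at an unadjusted p of 0.05), with means from 6.52 to 6.93 in Control and from 6.55 to 7.24 in Tbx3. Of 12 cardiomyocyte markers 4 fell, 0 rose and 8 did not pass (median -0.25), with means from 13.26 to 13.48 and from 13.01 to 13.39. These 4 were Ttn, Ryr2, Myh6 and Atp2a2, while Tnnt2 and Actc1, the troponin T and actin genes of heart muscle, were at 0.08 (adjusted p = 0.883) and -0.03 (adjusted p = 0.975). Mybpc3 and Csrp3 had the highest changes of the list, 0.29 and 0.22 (limma adjusted p of 0.185 and 0.539). At an unadjusted p of 0.05 in limma, 7 of the 12 were lower and 1, Mybpc3, was higher. The mean of the skeletal muscle markers, given next, did not overlap between the groups. The complex I mean lay below every Control array in all 6 Tbx3 arrays, and the cardiomyocyte mean in 5 of them. The other was Tbx3 array 2, whose complex I mean was the nearest to Control, at 10.48 against 10.59 to 10.71. Its cardiomyocyte mean was 13.39 and its fibroblast mean 9.55, both inside the Control range. The fibroblast means of Tbx3 arrays 3 and 6, at 9.68 and 9.64, also lay inside that range. Tbx3 array 6 had the lowest complex I mean, 10.26. The skeletal muscle mean of Tbx3 array 2, 5.67, lay below every Control array, as it did in all 6 Tbx3 arrays. These are single arrays, and how these means are related in them was not tested. The markers of cardiomyocytes were near the top of the brightness scale in both groups, from the 98th percentile up.

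Of 9 skeletal muscle markers 3 fell, 0 rose and 6 did not pass (median log2 change -0.12), and 5 changes lay below 0. Those that fell were Tnni2 (log2 change -3.28), Atp2a1 (-1.72) and Acta1 (-0.95), and only Tnni2 and Atp2a1 did not overlap between the groups. Tnnt3, Mylpf, Pvalb and Myh4 had changes of 0.14, 0.03, 0.07 and 0.17, none of them called. The mean level of the 9 markers ran from 6.08 to 6.53 in Control and from 5.51 to 5.74 in Tbx3. The myosin heavy chain genes of fast skeletal muscle, Myh1 and Myh4, were dim, at the 25.1st and 3.5th percentile. Of 10 endothelial markers 2 fell and 0 rose, and of 7 adipocyte markers 0 passed in limma (1 lower and 0 higher at an unadjusted p of 0.05).

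With a marker mean as a covariate most calls were lost, and the changes moved to different degrees. With the fibroblast mean 0 of 40 complex I genes fell, with a median log2 change of -0.23, and lower calls over all probes dropped from 775 to 82. Some genes moved further: the log2 change of Ndufab1 went from -0.30 to -0.11 and the log2 change of Ndufa5 from -0.22 to -0.06. With the erythroid mean 1 fell, Ndufs7 (log2 change -0.53, adjusted p = 0.0127), and the median was -0.26, with 369 lower calls over all probes. With the cardiomyocyte mean 0 fell, the median was -0.24 and 229 probes were called lower. With the skeletal muscle mean 0 fell, the median was -0.19, 31 of 40 changes lay below 0, and 1 probe of all was called lower. The errors were wider: the SE of Ndufs7 was 0.15 with the fibroblast mean and 0.13 with the cardiomyocyte mean, against 0.10 without, and the log2 change of Ndufs7 was -0.58 and -0.49. How these marker levels and the complex I change are related was not tested beyond these 4 fits.

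**Figure D5:**
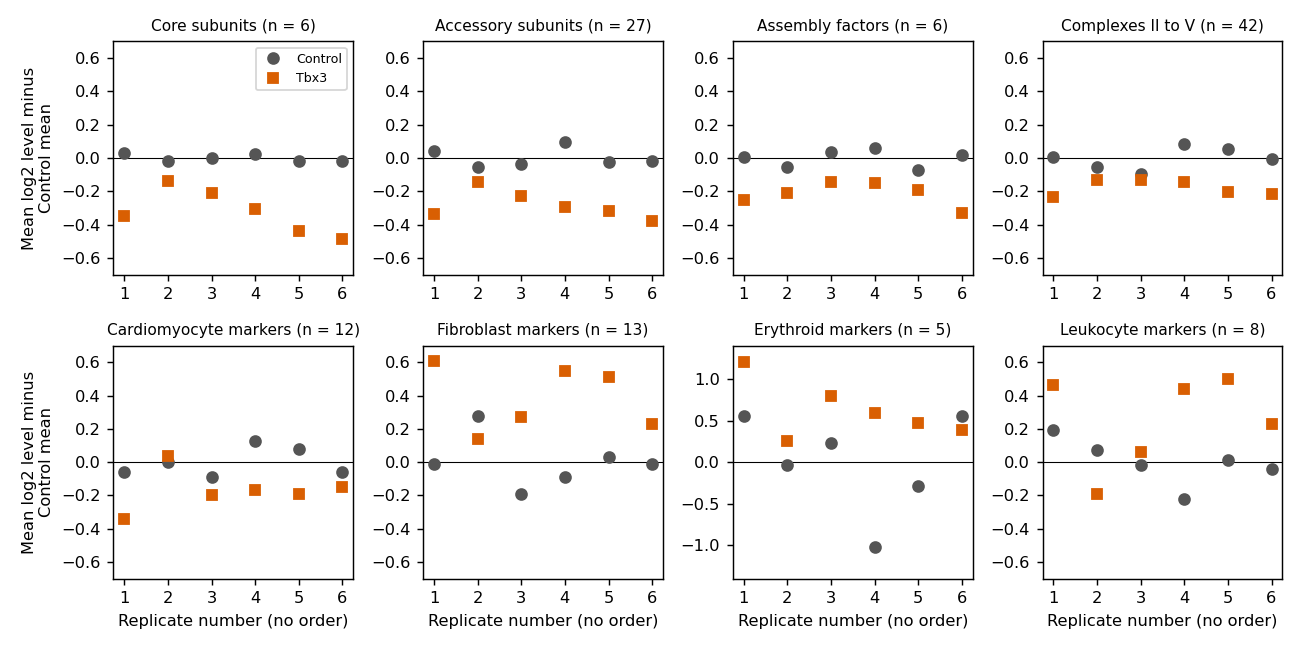
The mean log2 level of each gene group in each array, minus the Control mean, for Control (grey circles) and Tbx3 (orange squares). The vertical scale is wider for the erythroid markers. The Tbx3 points of the core, accessory and assembly groups lie below every Control point of the same group, as do those of complexes II to V, and the cardiomyocyte, fibroblast, erythroid and leukocyte groups overlap.

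The arrays were alike as a whole. Pairs of arrays from 1 group correlated at 0.964 to 0.983 over the probes and pairs from different groups at 0.959 to 0.979. Precision is limited by having 6 arrays a group.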

How the data were processed

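The authors deposited 1 table of log-scale probe values, taken here as natural log from their range, 2.63 to 10.81, whose top is 49513 on base e. Read as base 2, every log2 change shrinks by a factor of 0.693 and no p-value moves. The sources used here do not give the background correction, normalization or software, and no detection p-values were used. Of 46133 rows, 10 empty and 9 repeated ones were dropped. Values were put on log2 and quantile normalized, since interquartile ranges differed, from 0.54 to 0.65 in deposited units. Gene symbols came from the platform's annotation, brought up to date with RefSeq (GRCm38.p6), and 29533 probes had 1 symbol.

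Tbx3 was compared with Control in limma 3.58.1 under R 4.3.3 (lmFit, eBayes, 2-sided, Benjamini-Hochberg over all 46114 probes, adjusted p under 0.05). The method was tested on simulated data. SDs are between arrays, SEs and 95% intervals from the fit. Genes are named by role: all core genes, members past the threshold, the smallest p and the change nearest 0 in each class, members with disagreeing probes, and up to 3 per other list. Members, lists and tests were chosen with earlier results of these data known. Alternatives were other normalizations, dim-probe filters, array weights, variance models, a replicate block, mean of probes, base 2, other thresholds, left-out arrays and marker covariates.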

Additional observations from a re-analysis of the deposited data

Results flagged for a closer look

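In 4 of 88 groups of 6 arrays, tested over the 40 genes and the means of the classes, the highest or lowest array stood apart from the rest by more than 0.625 of the group's range. Chance flags about 1 in 20. Ndufv3 was low in Control array 2 (log2 level 12.05), Ndufa2 was high in Tbx3 array 2 (11.96), Ndufb7 was low in Tbx3 array 6 (7.35), and Ndufaf5 was low in Control array 5 (8.65).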

How the results depend on the processing

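The count of 13 complex I genes that fell was 17 in the table as deposited, 16 with median centring, 16 and 18 with the filters on dim probes, 13 with array weights and with robust variance, 17 with an intensity trend and 11 when a gene's probes were averaged. With the replicate block it was 12, losing Ndufa3 and Ndufs8 and gaining Ndufb10, but same-numbered arrays share only a number (correlations of their deviations from -0.02 to 0.069). None of these settings gave a rise, and the median stayed between -0.33 and -0.23. The base 2 reading gave -0.20. Of all features tested, 1.68% were called lower in the main fit, and 4.0% and 9.04% with the filters on dim probes. In the other settings named so far that share lay between 1.51% and 1.81%.

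At an adjusted p of 0.01, 5 genes fell, 3 of them accessory and 0 assembly, and 0.941% of all probes were called lower. The table as deposited, median centring and the averaged probes each gave 1 assembly factor. With the fibroblast or the cardiomyocyte mean (the latter chosen after seeing the data) as a covariate, 0 core, 0 accessory and 0 assembly genes fell, and with the erythroid mean 1, 0 and 0. Of all probes, 0.178%, 0.497% and 0.8% were called lower in these fits, in that order. Without single arrays, 9 to 13 genes fell, 2 to 4 core, 6 to 9 accessory and 0 to 2 assembly, with medians from -0.32 to -0.24.

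Chosen after seeing the data, leaving out Control 4 and Tbx3 6 together gave 7 falls, 5 of them accessory and 0 assembly, and a median of -0.22. The skeletal muscle mean, which separates the groups fully, left 0 falls in any class and a median of -0.19. Under it, changes turned to 0.02 for Ndufa8, 0.06 for Ndufaf5, 0.15 for Ndufb11, 0.20 for Ndufb7, 0.04 for Ndufb8 and Ndufc1, 0.08 for Ndufs6, 0.00 for Ndufa4 and -0.16 for Ndufs1. Errors were wide in that fit: the SE was 0.32 for Ndufa8 and 0.28 for Ndufa4, against 0.11 and 0.09 without the covariate. The log2 change of Ndufs6 was 0.17 with the fibroblast mean and, without single arrays, lay between -0.08 and 0.02, the latter without Tbx3 array 4. The cause was not tested. How far dim probes, such as those of Ndufs1 and Ndufaf6, stood above background is not known here.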
